A study of Mus musculus with 2 samples.

Results

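Toll-like receptors and the proteins that bind, fold or deliver them were examined as a set of 10 mouse genes, chosen by symbol: the receptors Tlr1, Tlr2, Tlr4, Tlr6, Tlr7 and Tlr9, the receptor-like protein Cd180, the small secreted partners Ly86 and Ly96, and the trafficking factor Unc93b1. Every probe set that the platform annotation assigns to 1 of these genes and to no other was kept, which gave 13 of the 22626 probe sets on each array, and 10 of the 12393 genes named. Tlr7 had 3 probe sets, Tlr4 had 2 and each of the other 8 genes had 1. The values came from 2 single-colour Affymetrix arrays, 1 of marginal zone B cells (MZ) and 1 of follicular B cells (FO), both from spleens of wild-type female C57BL/6 mice. B220-positive cells of 3 mice were sorted by flow cytometry as CD23-intermediate, CD21-high MZ cells and as CD23-high, CD21-intermediate FO cells. The sorted cells were pooled, and whether both populations came from the same animals is not said in the labels, nor is the age of the mice. With 1 array per population no replicate error and no test exist, so every difference below is a description of these arrays, and differences are read against how all other genes differed.

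Toll-like receptors recognise molecules that microbes share. Tlr2, as a dimer with Tlr1 or Tlr6, recognises bacterial lipoproteins at the cell surface, and Tlr4 recognises lipopolysaccharide there together with MD-2, the product of Ly96. Tlr7 recognises single-stranded RNA and Tlr9 unmethylated CpG DNA in endosomes, and both need Unc93b1 to leave the endoplasmic reticulum. Cd180 (RP105) resembles Tlr4 but lacks its signalling domain and pairs with MD-1, the product of Ly86. B cells carry antigen receptors and Toll-like receptors together, and marginal zone B cells are known for fast responses to Toll-like receptor ligands.

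Start-site windows from RefSeq (GRCm38.p6, 250 bases before to 50 after the start) were listed for 6 of the 10 members: Tlr1, Tlr2, Tlr6, Tlr9, Cd180 and Ly86. Windows of Ly86 and Cd180 are shown because their products form 1 complex, and that of Tlr9 because it alone among the 9 listed windows held both motifs searched. Capitals mark the motifs, each searched on either strand. They were AGGAAG, a form of the core bound by Ets factors such as PU.1, and ATGCAAA, the core of the octamer bound by Oct factors. Other forms of the Ets core were not searched. The windows lie at chr13:37345095-37345394 on the plus strand for Ly86, at chr13:102693297-102693596 on the plus strand for Cd180 and at chr9:106222348-106222647 on the plus strand for Tlr9.
Ly86: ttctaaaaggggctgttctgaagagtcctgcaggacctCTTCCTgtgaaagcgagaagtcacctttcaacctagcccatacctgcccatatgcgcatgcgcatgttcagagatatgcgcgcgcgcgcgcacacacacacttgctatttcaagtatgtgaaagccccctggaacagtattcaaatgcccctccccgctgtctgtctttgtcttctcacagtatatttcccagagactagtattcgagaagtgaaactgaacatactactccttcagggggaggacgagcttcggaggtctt
Cd180: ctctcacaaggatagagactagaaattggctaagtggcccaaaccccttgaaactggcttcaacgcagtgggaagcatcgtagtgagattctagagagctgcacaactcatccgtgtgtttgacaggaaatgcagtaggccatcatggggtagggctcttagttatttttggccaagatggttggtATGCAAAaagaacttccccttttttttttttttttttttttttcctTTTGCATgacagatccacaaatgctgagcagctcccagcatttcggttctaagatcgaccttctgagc
Tlr9: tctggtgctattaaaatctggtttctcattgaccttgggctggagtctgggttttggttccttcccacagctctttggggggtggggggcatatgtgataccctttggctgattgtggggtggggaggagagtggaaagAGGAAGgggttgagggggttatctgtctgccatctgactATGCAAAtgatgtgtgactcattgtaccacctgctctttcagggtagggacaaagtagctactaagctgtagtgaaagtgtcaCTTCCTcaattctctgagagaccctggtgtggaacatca
The searched form of the Ets core was present in 6 of the 9 windows, covering 5 of the 6 genes, and in 35.4% of all 32851 windows listed. In Tlr9 it began at positions -111 and +12 from the start site, and in Ly86 at -212. The octamer core was present in 4.63% of all windows and here in those of Tlr9 (at -72) and Cd180 (at -64 and -18 in the window shown). The motifs did not overlap in these windows, and they were chosen with the sequences in view. A match describes letters only, and the arrays do not measure binding.

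Signals are MAS5 intensities in arbitrary units, scaled so that both arrays had the same trimmed mean. A signal at or under 12.7, the median of all scaled values, is called near background, and lower values were raised to this floor before a ratio was taken. Of the 13 member probe sets, 10 were above the floor on both arrays, 1 (Tlr2) on the FO array only, and 2 (both of Tlr4) on neither, so 9 of the 10 genes had a measured signal. Over the whole array, 12847 of 22626 probe sets and 7695 of 12393 genes were above the floor on at least 1 array and so measured. Of the 13, 4 probe sets, those of Tlr1, Ly86, Unc93b1 and 1 of Tlr7, exceeded the 75th percentile of all values, a signal of 45.7, on both arrays. How many of all probe sets did so on both arrays was not counted. By the brighter array, 5 of the 9 measured genes reached that signal, as did 3898 of all 7695 measured genes.

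**Figure D1:**
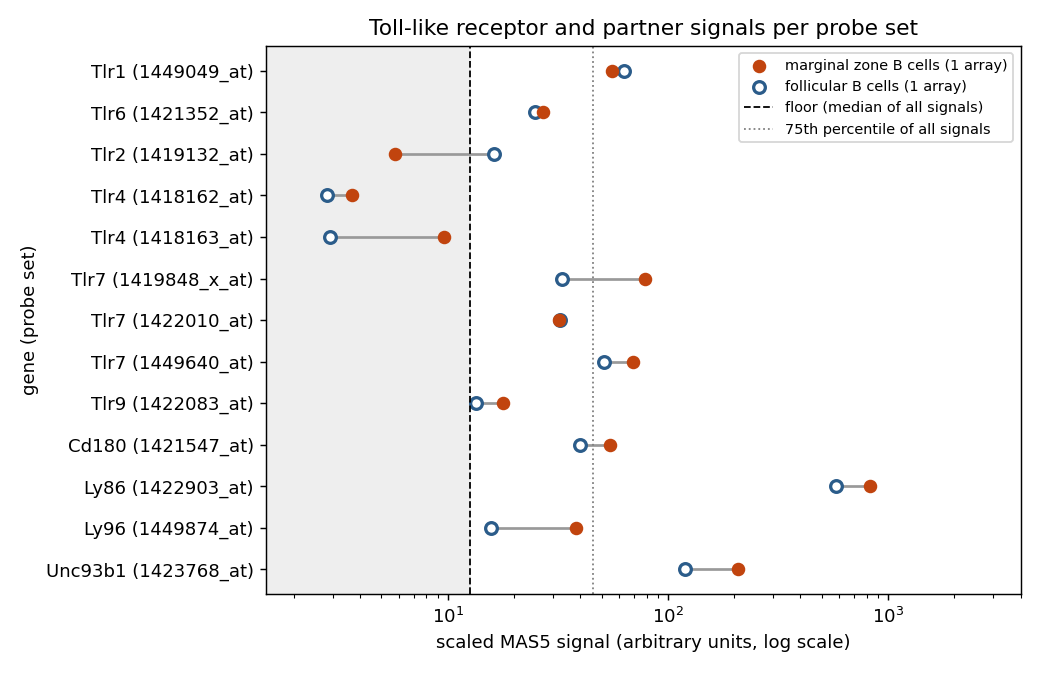
Scaled MAS5 signal (log axis, arbitrary units) of each of the 13 member probe sets on the marginal zone array (filled circles) and the follicular array (open circles), with the floor of 12.7 (dashed line, near-background range shaded) and the 75th percentile of 45.7 (dotted line). Ly86 and Unc93b1 lie far to the right on both arrays, both Tlr4 probe sets lie in the shaded range, and Tlr2 is in it on the marginal zone array only.

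All 4 partner proteins had the higher signal in MZ cells, while the 5 measured receptors went both ways, with 3 higher in MZ and 2 in FO cells. Where a gene had several measured probe sets, the brightest on average represents it. Of the 9 measured genes, 7 had the higher signal in MZ and 2 in FO cells, where 47.8% of all 7695 measured genes were higher in MZ cells. Tlr2, 1 of the 2, was measured through the FO array only, so its direction was fixed. At the 2-fold threshold 1 member (Ly96) was higher in MZ and 0 in FO cells, against 4.39% and 4.86% of all measured genes, so the number of members past 2-fold is too small to set the group apart. At 1.5-fold, 2 members (Ly96 and Unc93b1) were higher in MZ and 0 in FO cells, against 13.7% and 15.8% of all measured genes. The median log2 ratio of MZ over FO was 0.42 over the 9 members and -0.030 over all measured genes. By role, it was 0.66 over the 4 partner proteins, which ran from 0.47 to 1.29, and 0.13 over the 5 measured receptors, which ran from -0.35 to 0.42. Whether these medians differ could not be tested with 1 array per population, and the receptor values depend on the probe set read for Tlr7 and on the floor for Tlr2, as given below.

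Ly96, which lets Tlr4 bind lipopolysaccharide, was the member past 2-fold at the floor used; with a lower floor or none, Tlr2 and Tlr4 had larger ratios, from signals below background. Its signal was 38.2 in MZ cells and 15.7 in FO cells, 2.44-fold higher in MZ cells. The FO value was 1.24 times the floor and the MZ value 3.02 times, so the comparison rests on a dim probe set whose FO signal was close to background. Among measured genes that stayed under the 75th percentile on both arrays, 3.45% were at least 2-fold higher in MZ cells. Across all measured genes, 98.1% had a lower log2 ratio than Ly96. With a pseudocount of the floor's size in place of the floor the log2 ratio of Ly96 was 0.84, and with the floor at the 75th percentile Ly96 was no longer measured.

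Tlr4, the receptor that Ly96 serves, was near background in both populations. Its first probe set (1418162_at) was at 3.66 in MZ and 2.83 in FO cells, and its second (1418163_at) at 9.60 in MZ and 2.93 in FO cells. All 4 values lie under the floor of 12.7, so no ratio is given for Tlr4. The higher Ly96 signal of the MZ array was thus not accompanied by a measurable Tlr4 signal, which does not show that the receptor's transcript was absent.

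Ly86 and Cd180, which encode the parts of the MD-1 and RP105 complex, both had the higher signal in MZ cells. Ly86 stood far above the floor on both arrays, with a signal of 830.1 in MZ and 581 in FO cells, and was 1.43-fold higher in MZ cells. Cd180 was at 54.8 in MZ and 39.7 in FO cells, 1.38-fold higher in MZ cells. Neither difference reached 1.5-fold, and 84.0% of all measured genes had a lower log2 ratio than Ly86. RefSeq lists both genes on the same chromosome without placing them next to each other.

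Unc93b1, which carries the nucleic-acid-sensing receptors to endosomes, was at 208 in MZ and 119 in FO cells, 1.74-fold higher in MZ cells. Both values were well over the floor, at 16.4 and 9.43 times its level. Of all measured genes, 92.1% had a lower log2 ratio. Under the 9 other scalings, floors and probe set rules its log2 ratio stayed between 0.74 and 0.85. Its only probe set was above every floor tried, so a change of floor or probe set rule could not move it. Only the scalings and the pseudocount could.

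The endosomal receptors Tlr7 and Tlr9 were higher in MZ cells by less than 1.5-fold. Tlr7, the single-stranded RNA sensor, was measured by 3 probe sets that did not agree. The representative probe set (1449640_at) was at 69.2 in MZ and 51.5 in FO cells, a log2 ratio of 0.42. A second (1419848_x_at), designed from the same sequence record, was at 78.6 in MZ and 33.1 in FO cells, a log2 ratio of 1.25. The third (1422010_at), from another record, was at 32.0 in MZ and 32.3 in FO cells, a log2 ratio of -0.016. The suffix x marks a probe set in which some probes can match other transcripts, and the probe sequences were not used here.

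The 3 Tlr7 ratios spanned 1.26 on the log2 scale, against a median span of 0.62 over the 589 genes with 3 measured probe sets, and 9.17% of those genes had a span as large. Tlr7 therefore lay past 2-fold, under 1.5-fold or near a log2 ratio of 0 depending on the probe set read, and its mean over all 3 was 0.55. Counting probe sets in place of genes, 2 of 11 measured member probe sets were at least 2-fold higher in MZ cells (Ly96 and this Tlr7 probe set) and 0 in FO cells, against 4.27% and 4.76% of all measured probe sets.

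Tlr9, the CpG DNA sensor, was at 17.8 in MZ and 13.4 in FO cells, 1.33-fold higher in MZ cells. The FO value was 1.06 times the floor, so the Tlr9 ratio sits at the edge of what these arrays register. Tlr8, the neighbour of Tlr7 in RefSeq and also an endosomal receptor gene, was near background, at 9.30 in MZ and 0.81 in FO cells. Tlr3, the sensor of double-stranded RNA, was at 13.7 in MZ and 4.35 in FO cells, with only the MZ value over the floor.

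Of the surface receptors of bacterial lipoproteins, Tlr1 and Tlr6 differed by less than 1.5-fold, and Tlr2 has only a bound. Tlr1 was at 55.9 in MZ and 63.2 in FO cells, 1.13-fold higher in FO cells. Tlr6, its neighbour in the genome and a close relative, was at 27.1 in MZ and 24.9 in FO cells, 1.09-fold higher in MZ cells. The genes are paralogues, and cross-reaction between their probes was not tested. Tlr2, the shared partner of both, was at 5.74 in MZ and 16.2 in FO cells, which puts the MZ value in the background range and the FO value at 1.28 times the floor. Relative to the floor, Tlr2 was at least 1.28-fold higher in FO cells, and without a floor its log2 ratio was -1.49, a value set by a signal below background.

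**Figure D2:**
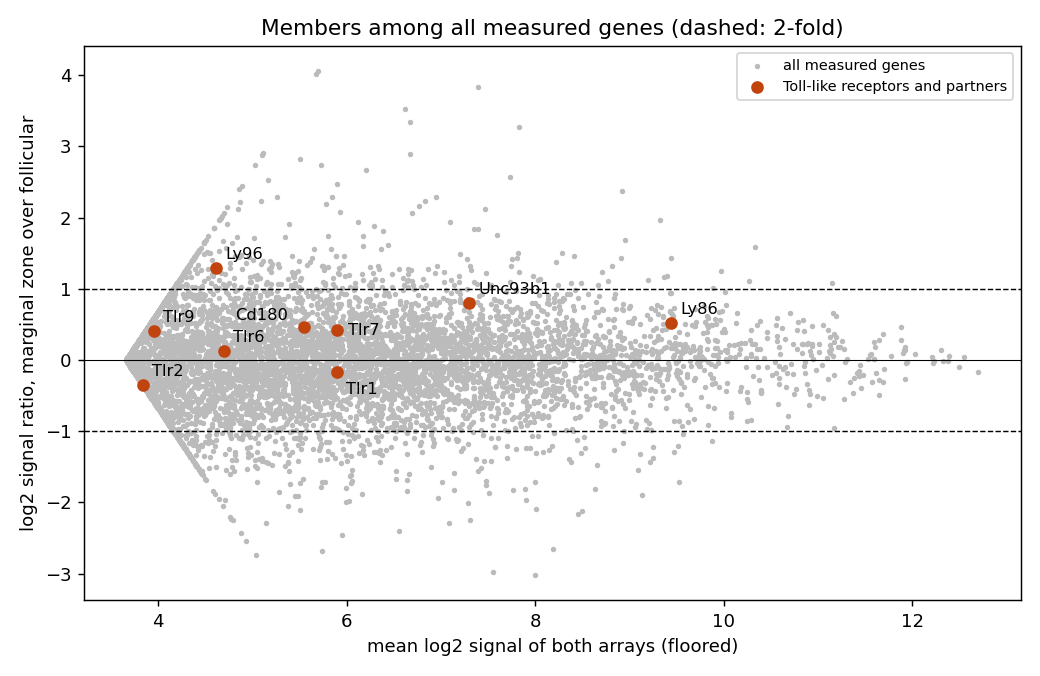
Log2 signal ratio of MZ over FO cells against the mean log2 signal of both arrays for all 7695 measured genes (grey) and the 9 measured members (orange), with dashed lines at 2-fold. Ly96 is the only member past a dashed line, and it lies at the dim end of the plot, while Ly86 and Unc93b1 lie at higher signal and above 0.

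The members differed in how far their ratios moved with the processing. The log2 ratio of Ly86 ran from 0.46 to 0.57 and that of Cd180 from 0.26 to 0.52 over the reported value and 9 alternatives. The ratio of Tlr7 ran from -0.016 to 0.78, since the alternatives changed the probe set read. Tlr1 was lower in MZ cells under every one of these, between -0.18 and -0.12. The only probe sets of Ly86 and Tlr1 were above every floor tried, so only the scalings and the pseudocount could move their ratios.

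**Figure D3:**
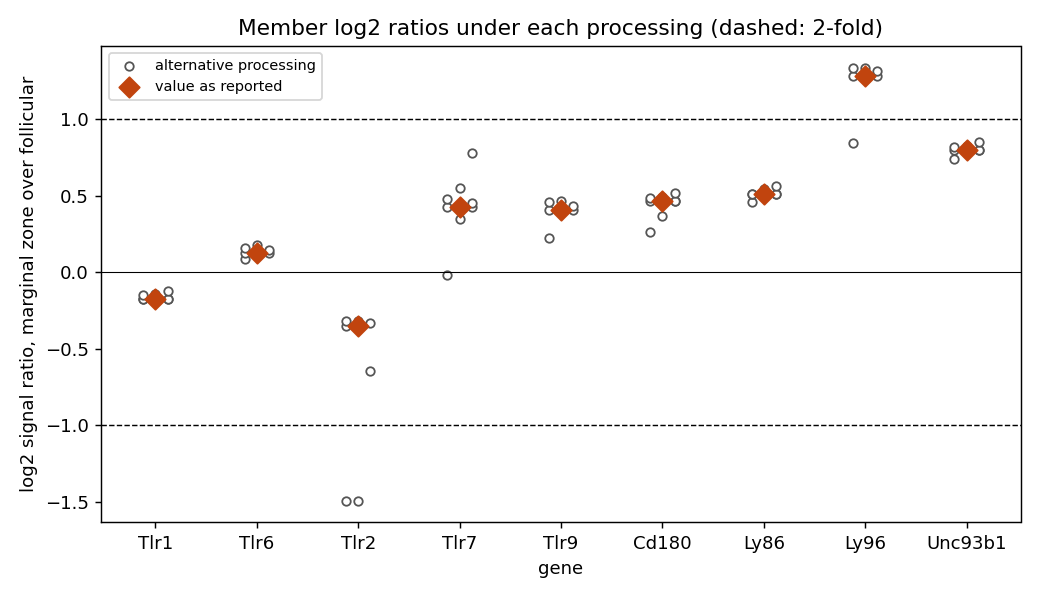
Log2 signal ratio of MZ over FO cells for each measured member as reported (diamonds) and under each alternative scaling, floor or probe set rule that gave a value (open circles), with dashed lines at 2-fold. Ly96 drops under 2-fold under 1 alternative (0.84), Tlr2 reaches -1.49 without the reported floor, and Tlr1, Tlr6, Ly86 and Unc93b1 stay close to their reported values. For Tlr1, Tlr6, Ly86 and Unc93b1 only the scalings and the pseudocount could move the value.

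Genes that act with the members or downstream of them were followed as 4 lists. Together 43 of their genes were measured, 18 higher in MZ and 25 in FO cells, where 47.8% of all measured genes were higher in MZ and 52.2% in FO cells. At least 2-fold higher were 2 in each population, which is close to the 4.39% and 4.86% of all measured genes, and the median log2 ratio was -0.072. Among other receptors and co-receptors, 6 of 11 genes on the array were measured, with 5 higher in MZ and 1 in FO cells. Of the 5, 3 (Tlr3, Cd14 and Lbp) were over the floor on the MZ array only, which fixed their direction. Il1rap, also among the 5, had a log2 ratio of 0.0030, and of -0.29 in its other probe set. Cd36, a scavenger receptor that assists Tlr2 with Tlr6 and a known MZ marker, was at 633.5 in MZ and 44.5 in FO cells, 14.2-fold higher in MZ cells. Cd14, which hands lipopolysaccharide to Tlr4, was at 14.8 in MZ and 2.43 in FO cells, and Sigirr, an inhibitory relative of the interleukin-1 receptor, at 13.3 in MZ and 15.2 in FO cells. The Cd14 and Sigirr signals were near or under the floor.

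Genes for folding, cleavage and delivery of the receptors split evenly, with 6 of 12 measured genes higher in each population and a median log2 ratio of 0.017. Of the 6 higher in FO cells, 1 (Rab7b) was over the floor on the FO array only, which fixed its direction. Ctsb, a lysosomal cysteine protease, was at 181 in MZ and 74.8 in FO cells, 2.43-fold higher in MZ cells, while its other probe set had a log2 ratio of 0.64. Cnpy3, a chaperone of Toll-like receptors, was at 21.3 in MZ and 13.5 in FO cells. Slc15a4, an endolysosomal transporter needed for Tlr7 and Tlr9 responses, was at 41.9 in MZ and 66.1 in FO cells, 1.58-fold higher in FO cells.

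Of 13 measured adaptors and kinases downstream of the receptors, 5 were higher in MZ and 8 in FO cells, with a median log2 ratio of -0.31, where 52.2% of all measured genes were higher in FO cells. Map3k7, among the 8, had 3 measured probe sets with log2 ratios on both sides of 0, from -0.32 to 0.14. Tirap, the adaptor that brings Myd88 to Tlr2 and Tlr4, was at 29.6 in MZ and 67.6 in FO cells, 2.28-fold higher in FO cells. Peli1, a ubiquitin ligase of the pathway, was at 296 in MZ and 475 in FO cells, and Tbk1, a kinase of the interferon branch, at 769 in MZ and 465 in FO cells. Of 12 transcription factors and inhibitors 2 were higher in MZ and 10 in FO cells, with a median of -0.15, and several of the 10 had ratios close to 0. Irf3, Irf5 and Nfkbiz, among the 10, had measured probe sets with log2 ratios on both sides of 0, from -0.78 to 0.58 in Irf3. No test of these counts exists. Bcl3, a nuclear partner of NF-kB, was at 11.8 in MZ and 37.9 in FO cells, at least 2.99-fold higher in FO cells; it was over the floor on the FO array only, so its place among the 10 was fixed. Nfkb2 was at 60.4 in MZ and 83.1 in FO cells, a log2 ratio of -0.46, and its other probe set gave -0.95. Rel, the NF-kB subunit prominent in B cells, was at 286 in MZ and 381 in FO cells.

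**Figure D4:**
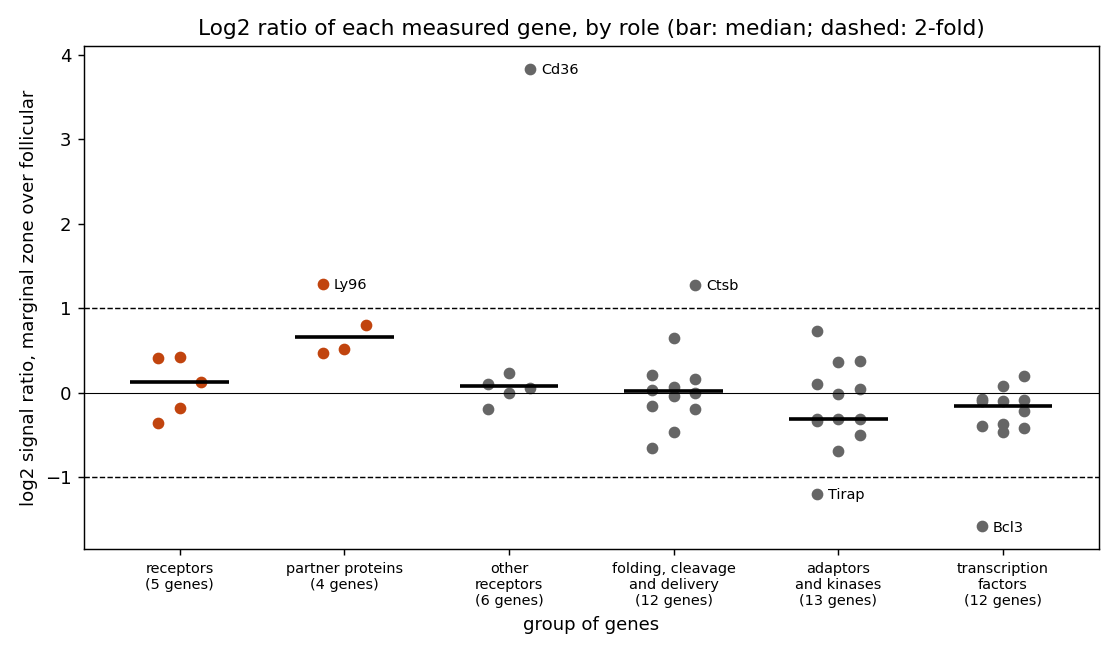
Log2 signal ratio of MZ over FO cells of each measured member (orange) and of the measured genes of the 4 pathway lists (grey), by role, with bars at the medians, dashed lines at 2-fold and names for genes past 2-fold. All 4 partner proteins lie above 0 with a median of 0.66, and 10 of the 12 genes for transcription factors and inhibitors lie below 0.

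All 7 B cell markers on the array were measured, 3 higher in MZ and 4 in FO cells, with a median log2 ratio of -0.32. Ms4a1 (CD20) was at 1878 in MZ and 1754 in FO cells, Cd79b, a signalling chain of the antigen receptor, at 546 in MZ and 1039.9 in FO cells, its partner Cd79a at 116 in MZ and 197 in FO cells, and the kinase Blk at 393 in MZ and 179 in FO cells. The sort could be read from its own marker transcripts, with Cr2 (CD21) at 889.9 in MZ and 278 in FO cells and Fcer2a (CD23) at 89.6 in MZ and 727 in FO cells. Markers of macrophages and monocytes, which also express many of the members, were followed as a list. Of 15 markers 8 were measured and higher in the MZ sample, where 47.8% of all measured genes were higher in MZ cells. However, 4 of the 8 (Cd68, Cd14, Cd5l and C1qb) were over the floor on the MZ array only, which fixed their direction. Of the rest, Adgre1 had a log2 ratio of 0.071, and the FO signal of Lyz2, at 12.9, was close to the floor. Csf1r and Cd5l were past 2-fold, where 4.39% of all measured genes were at least 2-fold higher in MZ cells. The summed signal of the 15 was 231 in MZ and 129 in FO cells. Sums here and below were taken without the floor, so they include signals near background. Csf1r was at 42.5 in MZ and 17.3 in FO cells, and its 3 probe sets had log2 ratios of 0.17 to 1.70, while 7 markers, C1qa, C1qc, Marco, Vsig4, Fcgr1, Siglec1 and Itgam, were near background on both arrays. Of 6 plasma cell markers, all measured, 4 were higher in MZ and 2 in FO cells, beside 47.8% and 52.2% of all measured genes. Their median log2 ratio was 0.60 and their summed signal 1328 in MZ and 1076 in FO cells. Most of that sum came from Xbp1, at 659 in MZ and 397 in FO cells, and Irf4, at 527 in MZ and 532 in FO cells. The 4 probe sets of Xbp1 had log2 ratios from -0.98 to 0.73. Prdm1 was at 30.9 in MZ and 12.7 in FO cells, the FO value being close to the floor. Sdc1 was at 4.35 in MZ and 68.3 in FO cells and was over the floor on the FO array only. The 3 probe sets of Sdc1 had log2 ratios from -2.43 to -0.32. The part of macrophages, monocytes or plasma cells in the members' ratios was not tested, and fewer cells of a type and less RNA per cell cannot be told apart. Dendritic cell markers, with 3 of 7 measured, summed to 73.9 in MZ and 70.0 in FO cells, and neutrophil markers, with 3 of 8 measured, to 76.1 in MZ and 63.9 in FO cells. In these lists 4 dendritic and 5 neutrophil markers were near background on both arrays, so the sums do not show similar cell content. T cell markers, with 3 of 7 measured, summed to 363 in MZ and 346 in FO cells, nearly all of it from Cd2, which was at 346 in MZ and 305 in FO cells. The sum is thus a reading of Cd2 more than of the list, in which 1 measured marker was higher in MZ and 2 in FO cells. Cd3e was at 1.29 in MZ and 17.2 in FO cells, and Cd4 at 1.98 in MZ and 13.9 in FO cells. Both were over the floor on the FO array only, which fixed their direction. Cd3d, Cd3g, Cd8a and Thy1 were near background on both arrays.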

How the data were processed

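The deposited values are linear intensities, 1 for each probe set on each array. They were made with MAS5, per the submitters' processing notes. Its version and scaling target were not given in the sources used here, and neither were detection calls. About 100 ng of total RNA per pool was amplified in a 2-cycle protocol, per the labels' protocols. The arrays were scaled to the same 2% trimmed mean (factors 0.990 for MZ and 1.01 for FO). Of 22626 probe sets, 20380 had 1 gene in the platform annotation, 691 had several and 1555 were not listed there. Of the 20380 probe sets, 20351 had a gene identifier found in RefSeq (GRCm38.p6). The floor was the median of all scaled values, and a probe set was measured when its higher value exceeded it. Ratios are log2 of MZ over FO. No coordinates of probe sets are given, since no build is named for the values. The genes named are all members and the up to 3 genes of each pathway list with the largest absolute log2 ratio. Marker genes stand for their lists. Tlr3, Tlr8, Lbp, Il1rap, Rab7b, Map3k7, Irf3, Nfkbiz and the genes under other observations were named after their values were seen. Members and lists were chosen with earlier results of these data known. The steps were tested on simulated data, with large changes put into genes well above the floor. That test does not cover small changes or changes in dim genes. Precision is limited by having 1 array per population. Analyses used Python 3.11.15, numpy 2.4.6 and pandas 2.3.3.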

Additional observations from a re-analysis of the deposited data

How the results depend on the processing

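No paired analysis was possible because each population had 1 array. Over the reported setting and 9 alternatives of scaling, floor or probe set rule, the median log2 ratio of the members ran from 0.35 to 0.51, with no replicate error to set this against. The counts were also taken at 2 other thresholds. The number of members past 2-fold in MZ cells was 1 as reported. It was 2 with the floor at the 25th percentile and 2 with no floor, where Tlr4 joined through signals below background (log2 ratios of 1.32 and 1.71), 0 with the floor at the 75th percentile, 0 with a pseudocount, 2 at 1.5-fold and 0 at 3-fold. Past 2-fold in FO cells there were 0 members as reported, and 1 (Tlr2) with the floor at the 25th percentile and 1 with no floor. The 4 pathway lists had 2 genes past 2-fold in MZ cells as reported, 7 with the floor at the 25th percentile, 7 with no floor, 1 with the mean over all measured probe sets, 1 with the dimmest, 4 at 1.5-fold and 1 at 3-fold. In FO cells they had 2 as reported, 4 with the floor at the 25th percentile, 4 with no floor, 0 with the floor at the 75th percentile, 1 with a pseudocount, 4 at 1.5-fold and 0 at 3-fold. The lower floors admit probe sets that the reported floor leaves out, and the 75th percentile leaves 5 measured members.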

Other observations

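Several central genes of the pathway, chosen after their values were seen, differed by less than 1.5-fold in their brightest probe set. Hsp90b1, the chaperone that folds most Toll-like receptors, was at 314 in MZ and 281 in FO cells (log2 ratio 0.16, and 0.54 in its other probe set), and Lgmn, a protease that can cleave the endosomal receptors, at 157 in MZ and 150.1 in FO cells. The adaptor Myd88 was at 77.3 in MZ and 60.0 in FO cells, and the kinase Irak1 at 306 in MZ and 237 in FO cells, with log2 ratios of 0.36 and 0.37. Of the interferon regulatory factors that these receptors activate, Irf5 was at 36.9 in MZ and 39.1 in FO cells (log2 ratio -0.083, and 0.46 in its other probe set) and Irf7 at 46.3 in MZ and 49.6 in FO cells. The NF-kB inhibitor Nfkbia was at 2457 in MZ and 3232 in FO cells, a log2 ratio of -0.40, with its 4 probe sets between -0.98 and -0.40. With 1 array of each population, these values do not show that the genes were equal.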
